A study of Mus musculus with 39 samples.

Results

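Genes whose RNA marks the B lymphocyte lineage were followed as a readout of E47 loss in whole tissue, namely Cd79a, Cd79b, Ms4a1, Ighm, Igkc, Ebf1, Pax5, H2-Ob and Ly6d. These 9 were chosen by symbol, with earlier results of these data known, and all 9 were found among the 46078 gene identifiers counted. E47 is a basic helix-loop-helix protein of the E2A (Tcf3) gene that binds E boxes as a dimer and is needed for early B cell development. E proteins act upstream of Ebf1 and Pax5, which open the B cell program, and the products of that program assemble the B cell receptor, an immunoglobulin with the signalling chains CD79A and CD79B. Mice without E47 in the whole body are known to stop at the pro-B stage, so that their tissues lack mature B cells, whereas a deletion driven from the albumin promoter is meant to act in hepatocytes and leave lymphocytes intact.

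RNA sequencing covered 39 libraries in 12 groups of C57BL/6 males (adult per the methods), each from whole tissue. Global mutants (E47-/-, here E47KO) were set against E47+/+ controls (WT, littermates per the methods) in untreated liver (6 E47KO and 5 WT), in liver after 3 weeks of 100 µg/ml corticosterone (Cort) in the drinking water (4 and 4), and after 3 weeks of 10 µg/ml dexamethasone (Dex), also in the water, in liver (3 and 2), epididymal fat (WAT, 2 and 2) and the quadriceps (3 and 2). Hepatocyte mutants (Albcre/+;E47fl/fl, here E47LKO, n = 3) and Cre-negative floxed controls (n = 3, of which 1 was Alb+/+;E47fl/+ and the others Alb+/+;E47fl/fl) received 1 mg/kg Dex by injection and were sampled 1 h later, and mice given Cort or Dex for weeks were killed after a glucose tolerance test. In whole tissue, fewer B cells and less RNA per B cell cannot be told apart.

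Libraries held 15.51 to 54.56 M reads in genes. Replicates carry separate numbers that were read as animal numbers, which no label states, so p-values measure the spread between these samples. The untreated libraries fall into 2 sets by the library number in their titles. The targeted gene Tcf3 did not check the genotype, since E47 and its splice partner E12 are counted together, and its level was 10.7 to 17.2 CPM over the untreated libraries of both genotypes (log2 fold change -0.15 ± 0.12, SE). CPM is the read count divided by the TMM-scaled library size in M reads, and TMM is the composition scaling of edgeR. Tissue labels matched their markers, with summed hepatocyte genes at 72367 CPM or more in every untreated liver, and summed skeletal muscle genes ran from 0 to 281 CPM over the untreated livers of both genotypes. The 3 libraries of 1 set (E47KO replicate 1 and WT replicates 1 and 2) had 0 to 0.241 CPM of the muscle actin Acta1, and the 8 of the other set had 7.96 to 117 CPM. The part of this muscle signal in the results below was not tested, and the muscle ranges of E47KO (0 to 225 CPM) and WT (0.441 to 281 CPM) livers overlapped.

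To show where an E protein could bind, the stretch upstream of the annotated gene start is given for 3 genes whose levels did not overlap between genotypes in untreated liver and which the promoter table held, with the E box letters CANNTG, which read the same on both strands, in capitals. The sequences are from RefSeq on build GRCm38.p6, and the table held 4 of the 9 genes. They span chr7:24897247-24897380 on the + strand for Cd79a, chr4:44710695-44710944 on the - strand for Pax5 and chr17:34238655-34238902 on the + strand for H2-Ob. Those of Cd79a and H2-Ob run up to the gene start. That of Pax5 ends upstream of its start at 44710487 and leaves out the bases between.
Cd79a: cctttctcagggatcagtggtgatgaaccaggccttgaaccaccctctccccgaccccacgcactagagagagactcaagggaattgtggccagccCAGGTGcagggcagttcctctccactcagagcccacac
Pax5: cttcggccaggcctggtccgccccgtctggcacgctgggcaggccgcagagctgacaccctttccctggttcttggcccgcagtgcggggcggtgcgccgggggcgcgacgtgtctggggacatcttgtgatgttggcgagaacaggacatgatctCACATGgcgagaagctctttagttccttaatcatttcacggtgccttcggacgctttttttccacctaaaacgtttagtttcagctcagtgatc
H2-Ob: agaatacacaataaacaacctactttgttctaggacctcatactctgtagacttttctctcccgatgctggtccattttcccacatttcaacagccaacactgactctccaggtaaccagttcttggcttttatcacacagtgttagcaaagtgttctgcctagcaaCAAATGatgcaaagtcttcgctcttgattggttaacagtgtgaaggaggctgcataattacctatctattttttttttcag
Each window held 1 copy of CANNTG, and 66.2% of the 32851 windows of 250 bases in the table held at least 1. The copy upstream of Cd79a was CAGGTG, one of the forms E2A proteins prefer. Read on 1 strand, these letters were found in 9.36% of the windows of 250 bases, their reverse complement CACCTG stood in 8.83%, and 27.7% held at least 1 of both or of the third such form, CAGCTG. These letters are a description of the windows, which are 134, 250 and 248 bases long, and were not tested for binding.

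In untreated liver, Cd79a, Ms4a1 and Pax5 were close to absent in E47KO mice, Cd79b and H2-Ob had fewer reads than in WT but were present, and Ighm, Igkc, Ebf1 and Ly6d overlapped between genotypes. Cd79a, the Igα signalling chain of the receptor (chr7:24897381-24902197, + strand, mm10), had 24, 16, 21, 14 and 17 reads in the 5 WT livers and 2, 1, 0, 1, 0 and 1 reads in the 6 E47KO livers. All WT libraries lay far above all E47KO libraries, and of the 5 reads left in the mutants 3 came from the antisense strand. Every E47KO library was at or under the floor of 3 reads, below which a count was read as a limit. The WT mean of Cd79a was 6.50 times that floor in CPM. It was called by the quasi-likelihood test of edgeR with Benjamini-Hochberg adjustment over 13904 genes (adjusted p = 0.00538, threshold 0.05), as were 0.0216% of all genes in that direction. The gene passed the filter on low counts through its WT libraries. Leaving out any 1 library kept this call, with adjusted p from 0.00583 to 0.0286. In the smaller library set Cd79a was at 0.0668 CPM in the E47KO library and at 0.551 and 0.814 CPM in the 2 WT libraries, and in the other set at 0 to 0.0283 CPM in E47KO and 0.347 to 0.545 CPM in WT. With the set as a covariate edgeR gave an adjusted p of 0.00425.

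Cd79b, the partner chain Igβ (chr11:106311341-106314762, - strand), had 33, 19, 33, 23 and 12 reads in WT and 9, 8, 6, 8, 3 and 10 in E47KO livers. Its libraries did not overlap, but a level of 0.208 ± 0.0834 CPM (SD, n = 6) remained in the mutants against 0.706 ± 0.298 CPM (n = 5) in WT. The log2 fold change was -1.76 ± 0.36 (SE), which edgeR did not call (unadjusted p = 0.000359, adjusted p = 0.624).

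Ms4a1, which encodes the B cell surface protein CD20 (chr19:11249675-11266241, - strand), had 7, 5, 13, 8 and 3 reads in WT and 0, 0, 1, 0, 0 and 0 in E47KO livers. Pax5, the factor that commits cells to the B lineage (chr4:44524757-44710487, - strand), had 4, 13, 21, 9 and 11 reads in WT and none in the 6 E47KO livers. Neither gene overlapped between genotypes. The WT mean was 2.45 times the floor of the mutants for Ms4a1, although its lowest WT library had 3 reads, and 3.95 times for Pax5. Their counts were under the filter and they were not part of the test. In a fit without the filter, edgeR called both, with adjusted p = 0.0317 for Ms4a1 and 0.0333 for Pax5, and DESeq2 gave adjusted p = 0.0039 and 5.33e-06.

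Ebf1, the factor that acts before Pax5 (chr11:44617317-45008091, + strand), had 4, 5, 9, 10 and 4 reads in WT and 0, 7, 7, 3, 0 and 4 reads in E47KO livers, and the genotypes overlapped. Neither edgeR without the filter (adjusted p = 0.798) nor DESeq2 (adjusted p = 0.999) called it. At these counts a modest difference was not detectable.

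H2-Ob, the beta chain of the class II modulator H2-O of antigen-presenting B cells (chr17:34238903-34254414, + strand), had 19, 30, 38, 26 and 15 reads in WT and 8, 7, 15, 10, 3 and 5 in E47KO livers. The raw counts met at 15 reads, but the levels per library did not overlap, with 0.412 CPM in the lowest WT and 0.359 CPM in the highest E47KO library. Its log2 fold change was -1.74 ± 0.35 (SE) and was not called either (edgeR unadjusted p = 0.000301, adjusted p = 0.599). Cd79a, Cd79b, Ms4a1, Pax5 and H2-Ob were the 5 of 9 genes whose CPM did not overlap between genotypes, all lower in E47KO. The share of all genes tested was 0.273%, which is over genes past the filter and so does not count Ms4a1 and Pax5. DESeq2 called these 5 genes, a count given here without its share of all genes. By edgeR, Cd79a was called of the 6 that passed the filter. Mean CPM was lower in E47KO for all 9 genes, and 4 of the 6 had an unadjusted p under 0.05, as did 2.21% of all genes in that direction.

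The immunoglobulin constant regions were far more abundant and did not separate the genotypes. Ighm, the constant region of IgM (chr12:113418558-113422730, - strand), had 638, 129, 192, 210 and 180 reads in WT and 170, 69, 288, 347, 65 and 46 in E47KO livers. Its genotypes overlapped, and the log2 fold change of -0.88 ± 0.58 (SE) was not called by edgeR (adjusted p = 0.965). Igkc, the constant region of the kappa light chain (chr6:70726435-70726966, + strand), had 295, 170, 61, 109 and 226 reads in WT and 86, 130, 73, 128, 65 and 50 in E47KO livers. It overlapped as well, at a log2 fold change of -1.08 ± 0.42 (SE, adjusted p by edgeR 0.965). E47KO livers without a read of Pax5 thus still held 50 to 130 reads of Igkc. Ly6d, a GPI-anchored surface protein of early B lineage cells (chr15:74762056-74763620, - strand), also overlapped, at 20, 12, 13, 35 and 11 reads in WT and 9, 3, 41, 6, 7 and 12 in E47KO livers.

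**Figure D1:**
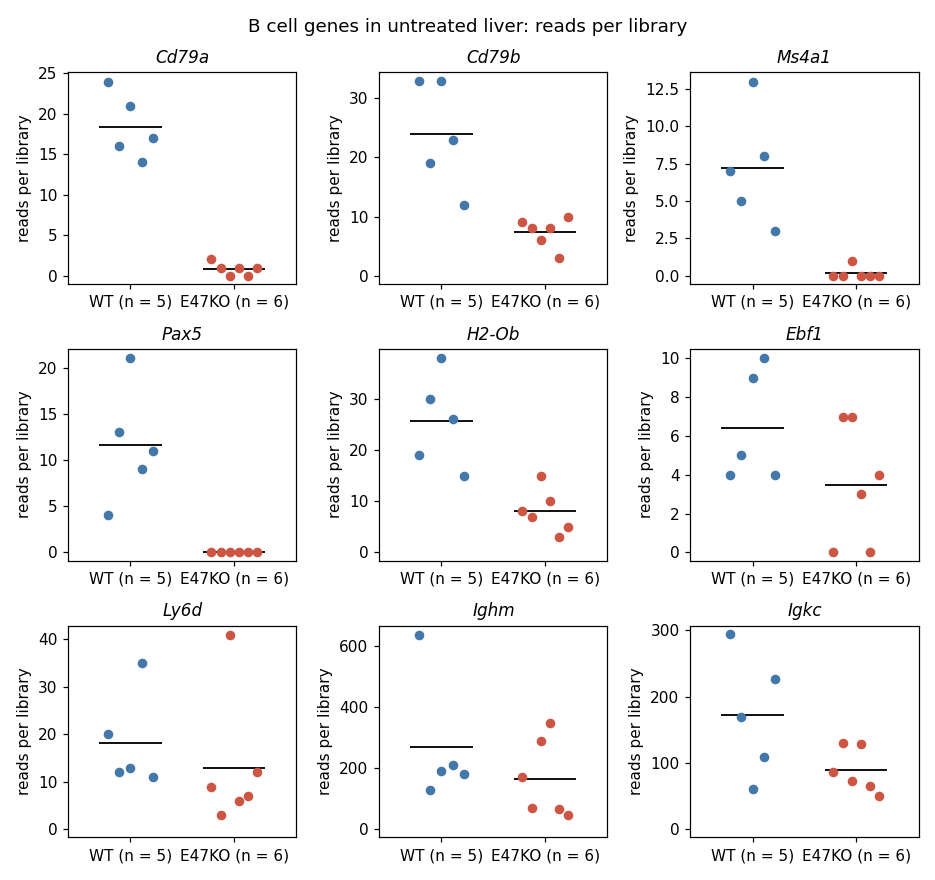
Reads per library (y axis) of the 9 genes in untreated liver, with a point per library, WT in blue (n = 5) and E47KO in red (n = 6), and a line at the mean. Cd79a, Ms4a1 and Pax5 lie at 0 to 2 reads in every E47KO library, Cd79b and H2-Ob are lower but present, and Ebf1, Ly6d, Ighm and Igkc overlap between genotypes.

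Variable segments were counted beside the constant regions, since they are transcribed with them in immunoglobulin mRNA. Over 113 Ighv segments, the summed reads ranged from 44 to 106 with a median of 48 in untreated WT livers and from 26 to 49 with a median of 30 in E47KO livers. Over 100 Igkv segments they ranged from 33 to 177 (median 90) in WT and from 30 to 80 (median 65.5) in E47KO livers. The kappa reads of E47KO livers were spread over 10 to 23 segments, against 22 to 54 in WT. The 3 Iglv segments of the lambda chain gave 9, 5, 3, 10 and 26 reads in WT and 0, 0, 0, 2, 0 and 0 in E47KO livers, without overlap, whereas the Ighv and Igkv sums overlapped. These sums were not tested.

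**Figure D2:**
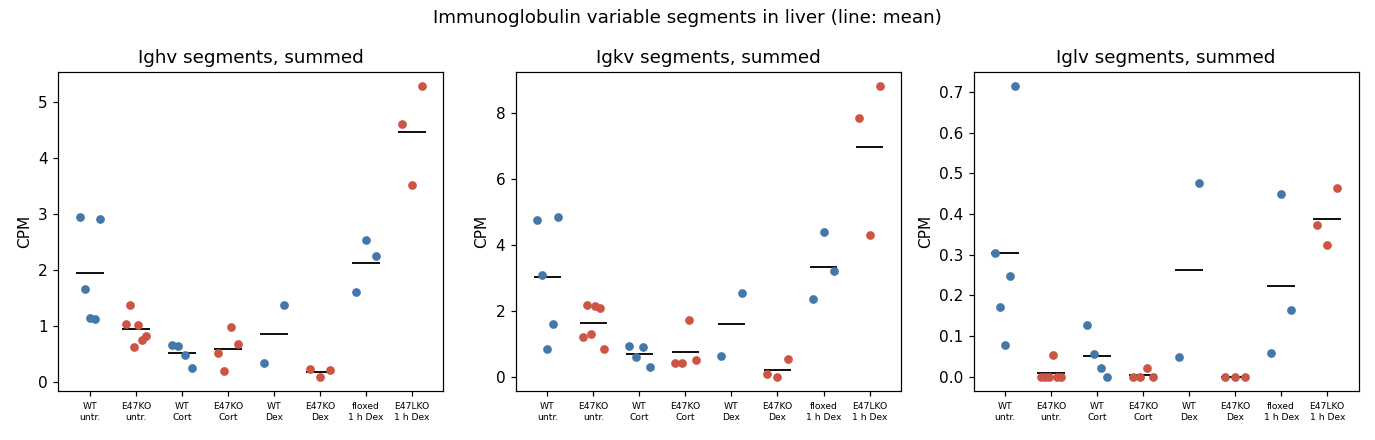
Summed CPM of the Ighv, Igkv and Iglv variable segments (y axes) in the 8 liver groups, with a point per library (control blue, E47 mutant red) and a line at the mean. Iglv segments are at 0 to 2 reads in the untreated E47KO libraries and at 3 to 26 in WT, while Ighv and Igkv segments remain in E47KO, and the E47LKO libraries (54 to 91 Ighv reads) lie above the floxed ones (28 to 45).

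Other B lineage genes were described by list. Of 16 B cell surface and signalling genes 9 passed the filter in untreated liver, with a median log2 fold change of -0.38 against -0.01 over all genes. Of 8 B cell transcription factors 4 passed and none was called in either direction (median -0.06), of 8 pro-B and pre-B genes 3 passed and none was called (median 0.23), and of 13 plasma cell and switched immunoglobulin genes 5 passed and none was called (median -0.54).

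Markers of other cells gave the context of these levels. Of 12 Kupffer cell and macrophage genes all passed and none was called (median -0.16), with summed levels of 155 to 423 CPM in WT and 171 to 291 CPM in E47KO livers. None of 10 T cell genes tested (median 0.07) and none of 8 genes of the class II list tested (median 0.19) was called. The summed class II genes were 52.3 to 105 CPM in WT and 62.3 to 118 CPM in E47KO livers and overlapped, while H2-Ob did not.

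After deletion in hepatocytes no listed gene was called lower, but only Igkc and Ighm passed the filter and could be called by edgeR. Floxed livers already held few reads of the other genes, so that a loss of these could hardly have been seen. In the 1 h Dex livers, Cd79a had 3, 6 and 1 reads in floxed and 8, 9 and 4 in E47LKO livers, Ms4a1 had 4, 1 and 1 against 5, 2 and 8, and Pax5 had 1, 3 and 4 against 4, 1 and 4. The genotypes overlapped for each of these genes, at 15.51 to 18.08 M reads per library. Cd79b (4, 8 and 6 reads in floxed, 11, 4 and 10 in E47LKO), H2-Ob (6, 4 and 7 against 12, 2 and 8), Ebf1 (3, 2 and 4 against 0, 1 and 4) and Ly6d (4, 5 and 6 against 4, 4 and 16) overlapped as well. Mean CPM was higher in E47LKO for 8 of the 9 genes and lower for Ebf1.

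Igkc and Ighm alone passed the filter in that experiment. Igkc had 71, 122 and 102 reads in floxed and 186, 118 and 279 in E47LKO livers, which came to 5.51 ± 1.39 against 11.8 ± 4.26 CPM (SD, n = 3 each) without overlap, as for 4.44% of all genes in that direction. The log2 fold change was 1.10 ± 0.29 (SE), which edgeR did not call (unadjusted p = 0.00487, adjusted p = 1.00). Ighm had 112, 91 and 208 reads in floxed and 346, 184 and 69 in E47LKO livers and overlapped at a log2 fold change of 0.70 ± 0.53 (SE, adjusted p by edgeR 1.00). No listed gene was called by edgeR or DESeq2 (0% of all genes by edgeR), and 1 had an unadjusted p under 0.05, as did 1.78% of all genes in that direction.

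The difference between global and hepatocyte loss was tested in 1 fit over all 30 livers, as the genotype effect in untreated liver minus that after 1 h of Dex. Ms4a1 (edgeR adjusted p = 0.0269), Pax5 (0.0372) and Cd79a (0.039) were called lower, 3 of the 8 genes that passed the filter of this fit, against 0.0308% of 16227 genes. That share is 5 genes, and these 3 are among them. They passed the filter through libraries in which they are high, since untreated E47KO livers held 0 to 2 reads of each. Ighd, the constant region of IgD of mature naive B cells, was also called lower (adjusted p = 0.0269). Fitted differences of genes at the floor are no bounds and are not given. Cd79b (difference of log2 fold changes -2.34 ± 0.65, SE), H2-Ob (-2.22 ± 0.69) and Igkc (-2.17 ± 0.79) were not called (edgeR adjusted p = 1.00 for each), and with the 3 called genes they made 6 with an unadjusted p under 0.05, as had 1.13% of all genes in that direction. For the mean of the 3 global experiments minus the 1 h Dex effect, no listed gene was called (0.00616% of all genes, in either direction) and Cd79a, Ighm and Igkc had an unadjusted p under 0.05 (1.31% of all genes in that direction).

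The 3 calls in untreated against 1 h Dex liver rested on few libraries, DESeq2 made 2, and counts from the strand column left 1, Cd79a. Over the 30 fits that left out 1 library each, none of the 3 genes was called in 9, 1 in 7, 2 in 5 and all 3 in 9. The call of all 3 was lost without untreated E47KO replicate 2, 4, 5 or 6, untreated WT replicate 3, floxed replicate 2 or 3, or E47LKO replicate 1 or 3. One call, Ms4a1, was left without untreated WT replicate 2 or 5, untreated E47KO replicate 3, floxed replicate 1, Cort E47KO replicate 1, or Cort WT replicate 3 or 4. Over these fits the adjusted p ran from 0.00969 to 0.13 for Ms4a1, from 0.0308 to 0.225 for Pax5 and from 0.0215 to 0.265 for Cd79a, while the difference was negative in all of them. The experiments also differed in treatment, RNA extraction and depth, which cannot be told apart from the kind of deletion.

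**Figure D3:**
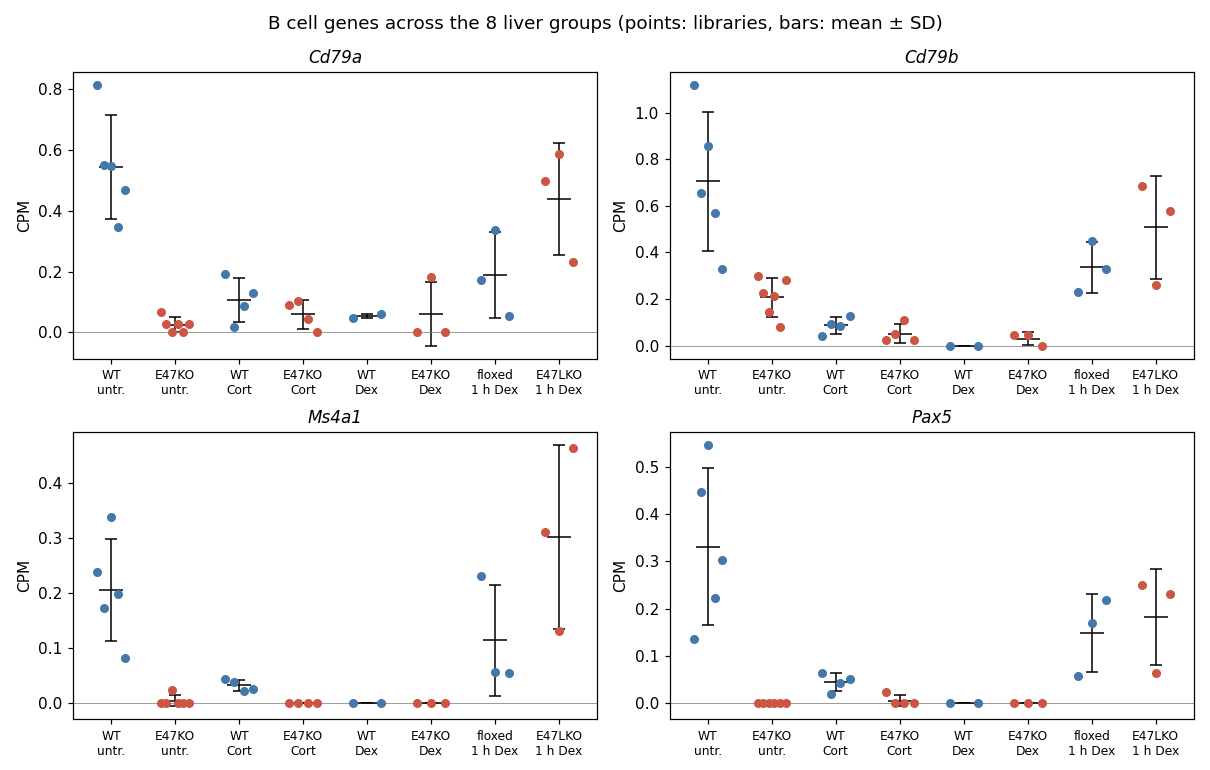
CPM (y axes) of Cd79a, Cd79b, Ms4a1 and Pax5 in the 8 liver groups, with a point per library (control blue, E47 mutant red) and bars for mean ± SD. Untreated WT libraries lie above untreated E47KO libraries in all 4 panels, floxed and E47LKO libraries after 1 h of Dex overlap, and WT libraries after weeks of Cort or Dex are near the mutants.

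After 3 weeks of glucocorticoid the readout shrank in WT mice themselves. In Cort-treated WT livers, Cd79a had 9, 1, 4 and 5 reads, Cd79b 2, 5, 4 and 5, Ms4a1 2, 2, 1 and 1, Pax5 3, 1, 2 and 2, and H2-Ob 5, 3, 3 and 1, although the Cort libraries held 37.81 to 54.56 M reads. In the 2 Dex-treated WT livers, Cd79b, Ms4a1 and Pax5 had no read and Cd79a and H2-Ob 1 in each. The Dex liver libraries held 17.5 to 21.45 M reads, fewer than the 30.87 to 39.01 M of untreated liver. Against untreated WT liver, 7 of 8 tested genes were called lower under Cort (background 16.1%), with log2 fold changes from -3.54 ± 0.48 (SE) for H2-Ob to -2.18 ± 0.55 for Igkc, and 5 under Dex, namely Cd79a, Cd79b, Ms4a1, Pax5 and H2-Ob (background 16.3%). Without either of the 2 Dex-treated WT libraries, Cd79a and Ms4a1 were no longer called, which left 3 calls. Genes of other immune cells were lower in the same comparisons. Under Cort, 8 of 13 T cell genes tested (median log2 fold change -2.07), 7 of 8 class II genes (-2.50) and 9 of 12 Kupffer cell and macrophage genes (-1.05) were called lower by edgeR, with Cd4 of helper T cells at -4.26 ± 0.51 (SE) and Cd74, the class II invariant chain, at -2.42 ± 0.31. Under Dex, 9 of 13 T cell genes (median -2.76), 8 of 8 class II genes (-2.62) and 0 of 12 Kupffer cell and macrophage genes (-0.32) were called lower, while Cd28 of the T cell list and Marco of the macrophage list were called higher. The median over all genes was 0.0055 under Cort and -0.041 under Dex, and the part of these cells in the result was not tested. Untreated, Cort and Dex mice were separate experiments, and the Cort libraries, labelled stranded, split their reads evenly between strands (50.05 to 50.1% on the larger), so treatment and experiment cannot be told apart.

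With so few reads left, the genotypes were hard to compare under treatment. Cort-treated E47KO livers had 4, 4, 2 and 0 reads of Cd79a, 1, 2, 5 and 1 of Cd79b, 1, 1, 4 and 2 of H2-Ob and 1, 0, 0 and 0 of Pax5, which overlapped with WT. Ms4a1 had no read in the 4 E47KO livers, without overlap with WT, but both groups were at or under the floor of 3 reads. Over the 13 E47KO livers of the 3 experiments, Ms4a1 and Pax5 each had 1 read in 1 library, and Ighd and Fcmr, the IgM Fc receptor, had none, while the 11 WT livers held 42 reads of Ms4a1, 66 of Pax5, 143 of Ighd and 50 of Fcmr. The 2 WT livers treated with Dex had no read of any of these 4 genes. Ighd and Fcmr were named because, among unlisted genes, their levels over the liver libraries were most like those of Cd79a. Their difference between genotypes is therefore not independent of that of Cd79a. Of other genes most like Cd79a, Fcer2a, Siglecg, Pou2af1 and Ighg2c had reads in some untreated E47KO livers, whereas Iglc1 had none there. Cd22, a B cell inhibitory receptor chosen after its values were seen, had 1 to 18 reads in the 13 E47KO livers. In untreated liver it was at 0.0957 to 0.509 CPM in E47KO and 0.546 to 1.02 CPM in WT, without overlap, as for 0.273% of all genes tested. Its log2 fold change there was -1.02 ± 0.33 (SE), which edgeR did not call (adjusted p = 0.965). Its levels overlapped between genotypes in the Cort and Dex livers.

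Immunoglobulin constant regions stayed measurable under treatment. In the Dex livers, Ighm had 31 and 88 reads in WT and 10, 5 and 6 in E47KO, and Igkc 31 and 49 in WT and 7, 0 and 8 in E47KO. The genotypes did not overlap for either gene, as for 7.62% of all genes in that direction, and log2 fold changes were -3.27 ± 0.62 for Ighm and -3.13 ± 0.81 for Igkc (SE), with adjusted p by edgeR of 0.999 for both. Summed class II genes in these libraries lay the other way without overlap, at 6.84 to 19.5 CPM in WT and 33.1 to 75.8 CPM in E47KO, and their part in the result was not tested. No listed gene was called there by edgeR, as 0.00752% of all genes were, and these 2 had an unadjusted p under 0.05, as had 1.91% of all genes in that direction. DESeq2 called Ighm (adjusted p = 0.00481) and edgeR without the filter called Ighm and Igkc (adjusted p = 0.00275 and 0.021), whereas over all alternatives the adjusted p of Ighm reached 1.00. Igha and Jchain, the IgA constant region and the joining chain of secreted antibody, had log2 fold changes of -2.94 ± 0.85 and -1.20 ± 0.42 (SE) and were not called (edgeR adjusted p = 0.999).

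In the Cort livers, Ighm had 80, 46, 34 and 21 reads in WT and 28, 16, 31 and 11 in E47KO, and Igkc 89, 56, 59 and 27 in WT and 22, 17, 167 and 55 in E47KO. Both overlapped, and edgeR called neither Ighm (log2 fold change -0.92 ± 0.41, SE, adjusted p = 0.511) nor Igkc (0.29 ± 0.64, adjusted p = 0.915). The mean genotype effect over the 3 global experiments was -1.69 ± 0.43 for Ighm (SE, adjusted p by edgeR 0.261) and -1.30 ± 0.40 for Igkc (adjusted p = 0.449), and DESeq2 called Ighm. edgeR called none of the 9 genes for this mean (0.0308% of all genes, in either direction), 4 had an unadjusted p under 0.05, as had 3.04% of all genes in that direction, and Ms4a1 and Pax5 could not be fitted in it because whole groups held no read. Cd74 was called higher in E47KO for the same mean, by 1.08 ± 0.20 on the log2 scale (SE, adjusted p by edgeR 0.0333), the 1 of 8 tested class II genes that was.

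Ly6d had another pattern. In Cort-treated liver it had 2491, 536, 300 and 313 reads in WT and 183, 55, 7 and 37 in E47KO mice, and every WT library was above every E47KO library, as for 3.75% of all genes. The WT mean was 19.4 ± 22.4 CPM against 1.67 ± 1.75 CPM in E47KO (SD, n = 4 each), or -3.53 ± 0.98 on the log2 scale (SE), and edgeR did not call it (unadjusted p = 0.00574, adjusted p = 0.279). It was the 1 listed gene with an unadjusted p under 0.05 in Cort liver, as had 6.06% of all genes in that direction, and 0 were called against 0.0274% of all genes. WT replicate 1 alone held 52.9 CPM, and leaving out 1 library at a time gave log2 fold changes from -4.55 to -2.28. The muscle gene Acta1 was at 0 CPM in WT replicate 1 and E47KO replicates 1 and 2, and at 26.4 to 35.8 CPM in the other Cort livers. The libraries without it held the highest Ly6d of their genotype, and the part of this split in the Ly6d levels was not tested. Ly6d was called by DESeq2 (adjusted p = 0.0467) and with the range of animal numbers as a covariate (0.0105), while over all alternatives its adjusted p reached 0.54.

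Against untreated WT liver, Ly6d was higher in Cort-treated WT liver, with a log2 difference of 5.11 ± 0.74 (SE) that edgeR called (adjusted p = 1.36e-05). No other of the 8 listed genes tested was called higher, as were 17% of all genes. Its genotype effect under Cort minus that in untreated liver was -2.94 ± 1.01 (SE) and was not called (edgeR adjusted p = 0.57), nor was any other listed gene (0.00616% of all genes, in either direction). Dex-treated WT livers had 31 and 5 reads and E47KO livers 13, 9 and 4.

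**Figure D4:**
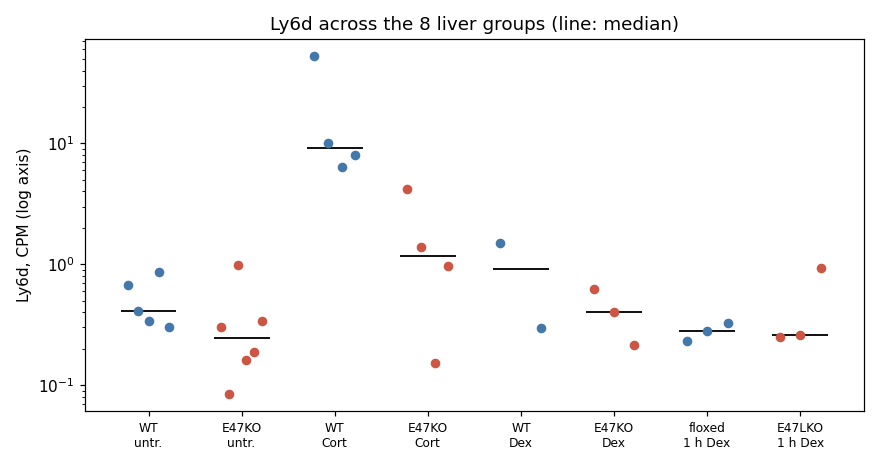
Ly6d in CPM on a log axis in the 8 liver groups, with a point per library (control blue, E47 mutant red) and a line at the median. Cort-treated WT livers range from 6.38 to 52.9 CPM and Cort-treated E47KO livers from 0.152 to 4.19 CPM, while all untreated and 1 h Dex livers are under 1 CPM.

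Outside liver, Ebf1 and Ighm were abundant while the other listed genes were scarce. In WAT, Ebf1, which also acts in the adipocyte lineage, had 3210 and 3195 reads in WT and 3130 and 3381 in E47KO. This was a level of 91.4 ± 2.39 against 80.5 ± 0.185 CPM (SD, n = 2 each) without overlap, as for 17.2% of all genes in that direction. Its log2 fold change of -0.18 ± 0.09 (SE) was not called (adjusted p by edgeR 0.977). Pax5 had no read in any WAT library, Ms4a1 had 2 and 2 reads in WT and none in E47KO, and Cd79a had 9 and 4 against 3 and 14. Cd79b had 3 and 3 reads in WT and 18 and 3 in E47KO WAT. Muscle gave 5 and 5 reads of Cd79b in WT and 6 to 8 in E47KO, higher without overlap in CPM (9.5% of all genes). Cd79a (2 to 5 reads in WT, 0 to 1 in E47KO) and H2-Ob (3 to 5 and 1 to 2) were lower there without overlap (7.44%). All 3 were under the filter of the test, so these shares do not include them. In muscle, Ebf1 had 323 and 280 reads in WT and 310, 504 and 374 in E47KO and did not overlap in CPM, as for 9.5% of all genes in that direction, and edgeR did not call the log2 fold change of 0.36 ± 0.18 (SE, adjusted p = 1.00). Summed adipocyte genes in the same muscle libraries were 429 to 534 CPM in E47KO and 159 to 218 CPM in WT, with an unadjusted p under 0.05 for 5 of 5 genes, and their part in the Ebf1 level was not tested.

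Ighm, unlike Igkc, had its highest group means in WAT and muscle. It had 3336 and 1785 reads in WT and 3415 and 2660 in E47KO WAT, at a log2 fold change of 0.06 ± 0.31 (SE, adjusted p by edgeR 0.994), and 1886 and 2640 reads in WT and 297, 1349 and 1018 in E47KO muscle, at -1.43 ± 0.51 (adjusted p by edgeR 1.00). WAT genotypes overlapped and muscle genotypes did not, as for 7.44% of all genes lower in muscle. Over the WAT libraries, all Ighv segments together gave 1 to 6 reads, and 3 of 5 muscle libraries had none, so the median of Ighm reads per Ighv read was 890 in WAT, against 2.41 in the 30 livers. Which transcripts they came from was not tested.

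Igkc was scarce in both tissues and had fewest reads in the mutants. WAT had 31 and 71 reads in WT and 1 and 7 in E47KO without overlap, as for 17.2% of all genes in that direction, and the log2 fold change of -3.86 ± 0.85 (SE) was not called (edgeR unadjusted p = 0.00582, adjusted p = 0.977). Leaving out E47KO replicate 3 gave an edgeR adjusted p of 0.0473 and DESeq2 one of 0.0488, and all other alternatives left it uncalled. Muscle had 6 and 14 reads in WT and none in the 3 E47KO libraries. The WT mean was 3.47 times the floor there, and Igkc was under the filter of the test. H2-Ob in WAT had 4 and 4 reads in WT and 12 and 8 in E47KO, not overlapping in the other direction, as for 15.8% of all genes tested. It was itself under the filter of the test. Beside it, Cd74 had a log2 fold change of 2.49 ± 0.25 (SE) and H2-Aa, a class II chain, one of 2.68 ± 0.21, and edgeR called neither (adjusted p = 0.347 and 0.24). By edgeR no listed gene was called in WAT (0% of all genes) or in muscle (0.0134% of all genes), and 1 in each had an unadjusted p under 0.05, as had 2.23% of all genes in WAT and 1.04% in muscle in that direction. DESeq2 called Igkc in WAT and no listed gene in muscle.

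**Figure D5:**
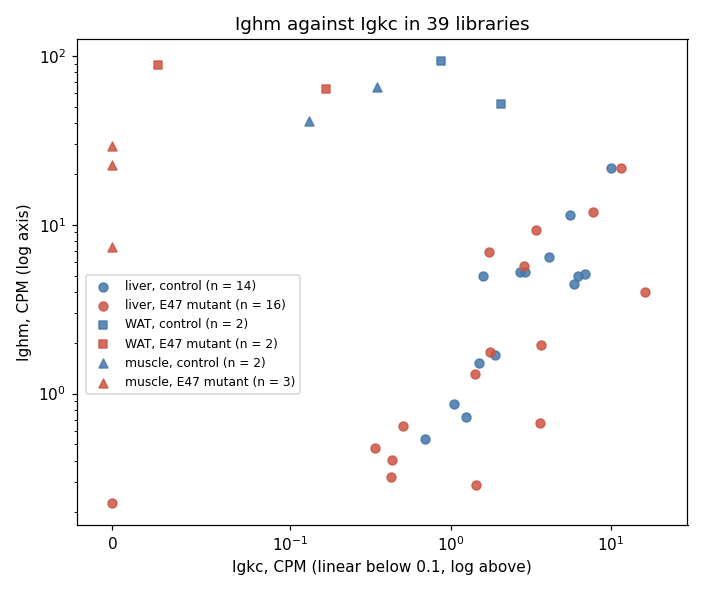
Ighm (y axis, log) against Igkc (x axis, linear below 0.1 and log above), both in CPM, in 39 libraries, with tissue by marker and genotype by colour. WAT and muscle libraries have 7.39 to 93.2 CPM of Ighm at 0 to 2.07 CPM of Igkc, whereas the 30 livers have 0.226 to 21.6 CPM of Ighm at 0 to 16.2 CPM of Igkc.

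Ordered by mean CPM, Cd79a was highest in untreated WT liver (0.545 ± 0.171 CPM, n = 5) and in E47LKO liver (0.438 ± 0.184, n = 3), followed by E47KO WAT, floxed liver and WT WAT between 0.184 and 0.206 CPM. All other groups were at 0.106 CPM or less, and untreated E47KO liver (0.025 ± 0.0246, SD, n = 6) and E47KO muscle (0.0157 ± 0.0136, n = 3) were lowest. Untreated WT and E47LKO livers overlapped, as did each of the groups under 0.21 CPM with its neighbours. Per kilobase of exon, untreated WT liver held 9.90 ± 6.22 CPM of Igkc, 4.37 ± 3.97 of Ighm, 0.493 ± 0.209 of Cd79b, 0.374 ± 0.118 of Cd79a and 0.0374 ± 0.0187 of Pax5 (SD, n = 5).

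Over the 30 livers, unlisted genes whose log2 CPM was most like that of Cd79a, among 16219 compared by Pearson's r, included Ighd (0.87), Fcmr (0.85), Iglc1 (0.78), Fcer2a (0.73), Ighg2c (0.71), Pou2af1 (0.70), Lax1 (0.70), Iglon5 (0.68) and Siglecg (0.68). Of the listed genes Pax5 (0.80), Ms4a1 (0.79), Cd79b (0.70) and H2-Ob (0.63) came next to it, Ighm (0.55) and Igkc (0.47) were further off, and Ly6d (-0.04) was unrelated. The points share experiments and depths, and most counts are small, so these values only describe the libraries.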

How the data were processed

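Poly(A) RNA of 39 tissue samples was sequenced. The deposited counts are reads per gene that the authors obtained with STAR 2.4.2a on mm10 and HTSeq, per the labels and methods, and which counter made the Dex files is not given in the sources used here. Libraries held 15.51 to 54.56 M reads in genes, and 20.8 to 36.76% of entries named no gene and were left out. The unstranded count was used throughout. Series-wide tables of the authors' comparisons (fold changes, p-values and normalized values) were not used.

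Counts were analysed in R 4.3.3 with edgeR 4.0.16 (filterByExpr with a minimum count of 10, TMM scaling, quasi-likelihood test, Benjamini-Hochberg over all genes, threshold 0.05), once per experiment and once over the 30 livers for differences between experiments. DESeq2 1.42.0, RLE scaling, no filter, the strand column, covariates, a replicate block and leaving out each library were alternatives, and the fits were tested on simulated data. A count of 3 or fewer reads per library was read as a floor. Folds against it divide the control mean by the mean floor of the mutants and leave out the spread and counting error of the controls. No 2 replicates of a group agreed within sampling noise. Symbols came from GENCODE vM21.

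The 9 genes and all lists were chosen with earlier results of these data known. Other genes were taken from those past the threshold in their list (at most 6), otherwise at most 2 with the highest counts, and from the 10 unlisted genes most like Cd79a (prior count 2). Not every gene or list this rule allows is reported here.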

Additional observations from a re-analysis of the deposited data

Results flagged for a closer look

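In all, 6 library values stood apart from the rest of their group by a gap beyond Dixon's 95% limit, of 34 gene and group pairs examined. That limit is made for continuous values, so its rate of about 1 in 20 need not hold for small counts. For Ms4a1 and Pax5 below, all other libraries of the group were at 0, so that 1 read was enough for the flag. Untreated WT replicate 1 had 21.6 CPM of Ighm and Cort-treated WT replicate 1 had 52.9 CPM of Ly6d. Untreated E47KO replicate 3 had 0.980 CPM of Ly6d and, from 1 read, 0.0239 CPM of Ms4a1. Cort-treated WT replicate 4 had 0.155 CPM of Ebf1, and Cort-treated E47KO replicate 1 had, from 1 read, 0.0229 CPM of Pax5.

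For 3 genes the genotype effect differed between untreated global mutants and hepatocyte mutants after 1 h of Dex by the test of the difference in edgeR, with adjusted p = 0.0390 for Cd79a, 0.0269 for Ms4a1 and 0.0372 for Pax5. These calls were lost when single libraries were left out, with adjusted p up to 0.265, 0.130 and 0.225.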

How the results depend on the processing

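Most of these genes had few reads per library, so modest differences were not detectable. Counts under the alternatives are given without the share of all genes called. In counts of listed genes called, untreated liver gave 5 with DESeq2, 3 without the filter and 0 with a replicate block (Cd79a adjusted p = 0.144), against 1. Cort liver gave 1 with DESeq2, with the animal number range and with the replicate block (Ly6d, adjusted p = 0.0423), Dex liver 1 with DESeq2 and 2 without the filter, WAT and the global mean 1 with DESeq2, each against 0. Leaving out 1 library gave 0 to 1 in WAT, 0 to 3 for untreated minus 1 h Dex (1 with the strand column, against 3) and 3 to 5 for WT Dex against untreated (3 with the strand column, against 5). Log2 fold changes turned direction for Ly6d in Dex liver without WT replicate 1 (-1.84 to 0.48 over left-out libraries), for Igkc in Cort liver without E47KO replicate 3 (-0.64 to 0.60) and with the replicate block (-0.052), and for Ighm in WAT without E47KO or WT replicate 2 (-0.20 and -0.30, range -0.30 to 0.54). The cause was not tested. Replicate numbers did not pair the samples: in no experiment with 3 or more pairs did every pair correlate above 0.1 (3 of 5 in untreated, 3 of 4 in Cort, 2 of 3 in 1 h Dex liver). No paired fit was run in WAT, where genotypes share 1 number. All other counts stayed within 1.5 times.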
